A study of Homo sapiens with 8 samples.

Results

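Aminoacyl-tRNA synthetases are the enzymes that load each amino acid onto its tRNA before translation. The 36 genes described here are rows of the deposited table taken by the symbol of such an enzyme, out of 23391 genes in all. They comprise 20 genes for cytosolic enzymes and 16 for mitochondrial enzymes, the latter marked by the suffix 2. GARS and KARS encode the cytosolic and the mitochondrial enzyme for their amino acid and were kept among the cytosolic ones. The set was selected on the read counts of AARS, the alanyl-tRNA synthetase, which were much lower under DY131 in both cell pools in earlier results of the same libraries. The values of the members under DY131 in each cell pool are therefore a description. Calls given for them (adjusted p under 0.05) are a description too, and nothing is read from their counts.

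The DU145 line was derived from human prostate cancer. RNA-Seq was performed on DU145 cells, as pools stably transfected with the empty pcDNA3.1 vector (DU145-pc3.1) or with an Esrrb expression vector (DU145-Esrrb), and both pools went through the same zeocin selection. Each pool was sequenced untreated (without DY131) and after 3 μM DY131 in medium with charcoal-stripped serum. DY131 is an agonist of the estrogen related receptors beta and gamma. There were 2 libraries in each of the 4 groups, described as biological replicates. Esrrb and other differences between the selected pools cannot be told apart, and the length of the treatment is not given in the sources used here.

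Cytosolic synthetases charge the tRNAs used by the ribosomes of the cytoplasm, and several of them sit together in the multisynthetase complex. Mitochondrial synthetases are encoded in the nucleus and imported to charge the tRNAs of the mitochondrial genome. Many cytosolic synthetase genes are known targets of ATF4, the transcription factor of the amino acid response, which binds composite C/EBP-ATF response elements.

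The libraries held between 7858743 and 11551690 counts on genes. ESRRB ranged from 0 to 0.286 cpm (counts per 1000000 counts of the library) in the 4 DU145-pc3.1 libraries and from 8.83 to 16.2 cpm in the 4 DU145-Esrrb libraries, so that no library went against its label. The epithelial keratins KRT8 and KRT18 were at 776 cpm or more in each library, and KLK2 and KLK3, prostate secretory genes, were listed at 0. The DY131-treated DU145-Esrrb libraries stood apart from the other 6 in how gene structure moved with the counts, and the values that bear on this are given beside the results below.

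The promoter windows of 30 members, from 250 bases before to 50 bases after the start site, were read from RefSeq on GRCh38.p14. DARS, LARS, VARS, YARS, AARS2 and VARS2 had no window. The letters TGATGNAA, the core of the C/EBP-ATF response element, were searched on both strands. They were found in 7 of the 16 cytosolic members with a window (43.8%) and in 1 of the 14 mitochondrial members (7.14%), against 4.46% of 27305 RefSeq genes. The stretches of 30 bases around these matches are shown because the members with and without them are set side by side under DY131 below. They are written 5′ to 3′ on the strand of the gene, with the matched letters in capitals.
AARS, chr16:70289675-70289704, reverse strand: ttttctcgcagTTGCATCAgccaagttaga
CARS, chr11:3057407-3057436, reverse strand: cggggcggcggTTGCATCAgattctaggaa
GARS, chr7:30594834-30594863, forward strand: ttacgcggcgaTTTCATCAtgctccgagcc
IARS, chr9:92293692-92293721, reverse strand: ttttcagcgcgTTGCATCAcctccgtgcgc
MARS, chr12:57488053-57488082, forward strand: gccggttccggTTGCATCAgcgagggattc
NARS, chr18:57621804-57621833, reverse strand: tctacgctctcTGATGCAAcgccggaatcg
TARS, chr5:33440956-33440985, forward strand: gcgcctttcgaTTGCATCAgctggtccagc
YARS2, chr12:32756076-32756105, reverse strand: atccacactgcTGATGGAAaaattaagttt

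The match lay within the 33 bases before the start site in GARS and IARS, across the start site in CARS and MARS, and within the first 22 transcribed bases in NARS and TARS. In AARS and YARS2 it lay farther upstream, from 187 and 197 bases before the start. TTGCATCA, with a C between TTG and ATCA, was the form in 5 of the 7 cytosolic members, and NARS held the same letters on the other strand. AAGGTCA, the core to which estrogen related receptors bind, was found in FARSA and TARS among the members, which was 12.5% of the cytosolic windows against 4.8% of RefSeq genes. These stretches are printed because the study expressed such a receptor, with the matched letters in capitals.
FARSA, chr19:12933927-12933956, reverse strand: ggcggtgcttcTGACCTTgagataatcaat
TARS, chr5:33440763-33440792, forward strand: gcgtccagaccAAGGTCAgcggagagtagg

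A match of letters is a description of the window and not a binding site. No window of a mitochondrial member held AAGGTCA. HARS and HARS2 lie head to head on chromosome 5, and their windows overlap by 184 bases on opposite strands.

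In untreated DU145-pc3.1 cells, AARS had the highest level of all members per length of mRNA, at 206 cpm per kb. GARS, the glycyl-tRNA synthetase, followed at 155 cpm per kb and TARS, the threonyl-tRNA synthetase, at 125 cpm per kb. The tested cytosolic members had a median of 85.2 cpm per kb and the tested mitochondrial members one of 11.2 cpm per kb. IARS2, the mitochondrial isoleucyl-tRNA synthetase, was the exception among the mitochondrial enzymes at 103 cpm per kb, above 14 of the 19 tested cytosolic members. After DY131 in DU145-pc3.1 cells AARS was at 108 cpm per kb and GARS, KARS and TARS were each at 109 cpm per kb. In DY131-treated DU145-Esrrb cells AARS was again first, at 97.9 cpm per kb, with KARS next at 88.5 cpm per kb. PARS2, the mitochondrial prolyl-tRNA synthetase, was the lowest tested member at 3.19 cpm per kb. VARS, the cytosolic valyl-tRNA synthetase, was listed at 0 in all 8 libraries, and VARS2 reached at most 1.05 cpm, so that 34 of the 36 members passed the filter of 1 cpm in 2 libraries. For VARS an absent mRNA and reads that were not assigned to the gene cannot be told apart.

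**Figure D1:**
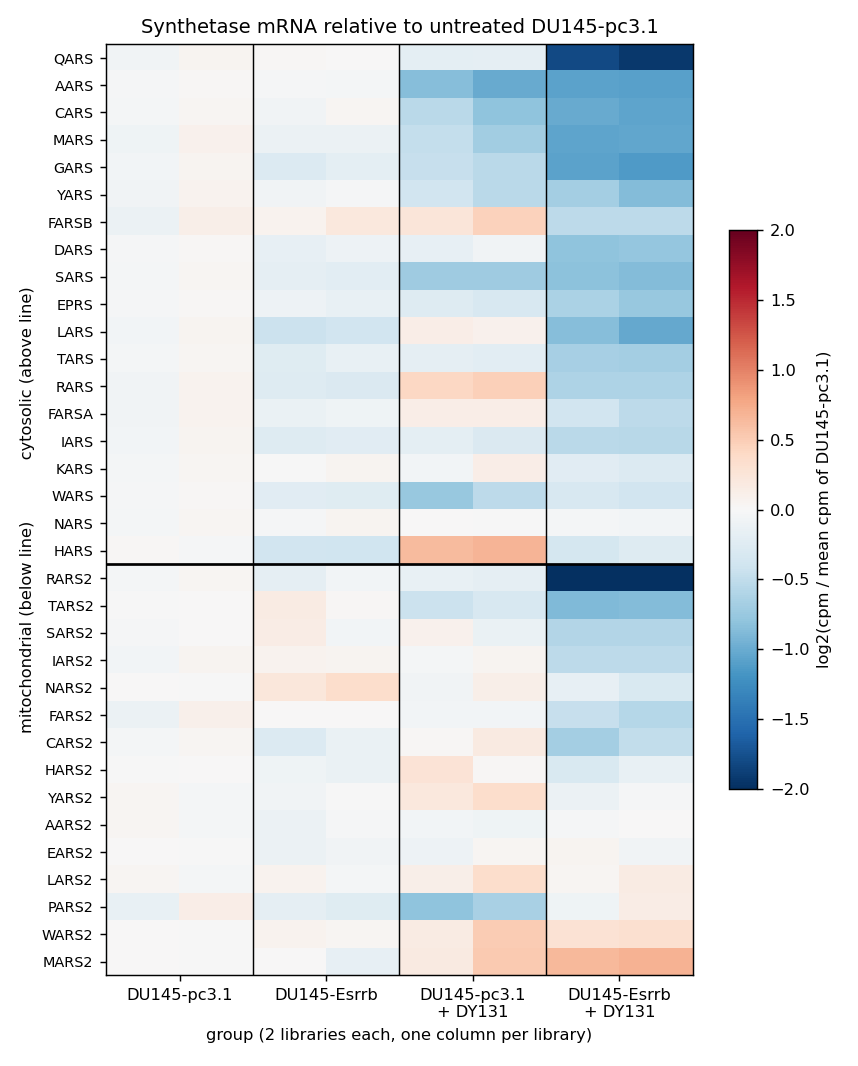
Heat map of the 34 tested members (one per row) in the 8 libraries (one per column, 2 for each group), as log2 of the cpm over the mean cpm of untreated DU145-pc3.1 cells. The colour scale ends at -2 and 2, and RARS2 lies just past its lower end in DY131-treated DU145-Esrrb cells. Blue spreads over most cytosolic rows and over the upper mitochondrial rows in those 2 libraries.

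Summed over the class, the cytosolic synthetases took 4880 and 5190 cpm in untreated DU145-pc3.1 cells and 4550 and 4640 cpm in untreated DU145-Esrrb cells. Under DY131 they took 4110 and 4020 cpm in DU145-pc3.1 cells and 3110 and 3010 cpm in DU145-Esrrb cells. The libraries of the 4 groups did not overlap, and the 2 treated groups were the lowest. The mitochondrial synthetases took from 756 to 804 cpm in the first 3 groups, which overlapped, and 599 and 606 cpm in DY131-treated DU145-Esrrb cells. IARS2 made up most of that difference, with 384 and 382 cpm in untreated and 256 and 255 cpm in treated DU145-Esrrb cells. The sums are not corrected for the exon junction shares described below. With that correction the log2 fold change of IARS2 between these groups was -0.21 in place of -0.59, still called lower. The corrected median over the mitochondrial members was -0.01, but a median weighs each gene alike and a sum does not. The ratio of the cytosolic to the mitochondrial sum was 6.41 and 6.58 in DU145-pc3.1 cells and 5.72 and 5.89 in DU145-Esrrb cells. It was 5.44 and 5.0 in treated DU145-pc3.1 cells and 5.20 and 4.96 in treated DU145-Esrrb cells. The ratio was thus lower with DY131 in each pool, but its cytosolic sum includes AARS, whose counts chose the set. AARS had a mean of 717 cpm in untreated and 376 cpm in treated DU145-pc3.1 cells, and of 704 and 340 cpm in DU145-Esrrb cells. The ratio without AARS was not computed. In bulk RNA, fewer cells with an mRNA and less of it per cell cannot be told apart.

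**Figure D2:**
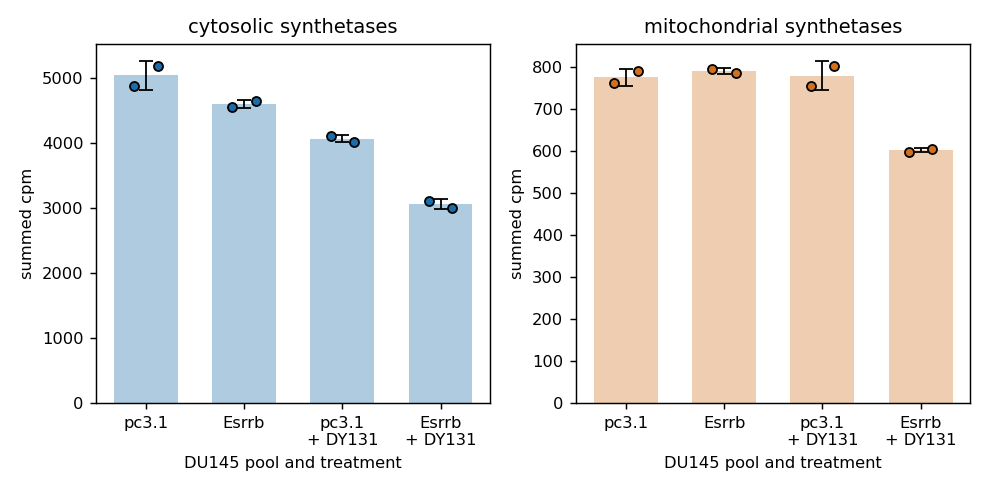
Summed cpm of the 20 cytosolic (left) and the 16 mitochondrial (right) synthetases by group, with bars for the mean, error bars for the SD of the 2 libraries and points for the libraries. The cytosolic sum steps down from 5040 to 3060 cpm over the groups, while the mitochondrial sum stays between 776 and 791 cpm in the first 3 groups and is 603 cpm in the last. Each axis starts at 0.

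The first comparison asked what Esrrb did to the synthetase mRNAs without DY131. Of the 34 tested members, 5 fell and none rose in DU145-Esrrb cells against DU145-pc3.1 cells, all 5 of them cytosolic. Over all 13856 tested genes, 4.18% were called in this comparison, 2.5% lower and 1.68% higher. At a 2-fold limit none of the members and 0.577% of the genes were called. The median log2 fold change was -0.13 over the cytosolic members and -0.04 over the mitochondrial ones, against 0.00 over all tested genes.

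LARS, the leucyl-tRNA synthetase, had 256 and 277 cpm in DU145-pc3.1 cells and 197 and 205 cpm in DU145-Esrrb cells. The groups did not overlap, and LARS fell by 0.41 on the log2 scale (SE 0.06, edgeR's quasi-likelihood test, Benjamini-Hochberg adjusted p = 0.0017). HARS, the histidyl-tRNA synthetase, went from 52.0 and 50.5 cpm to 39.2 and 39.0 cpm, a log2 fold change of -0.39 (SE 0.08, edgeR adjusted p = 0.00729). The other members that fell were RARS, IARS and GARS, for arginine, isoleucine and glycine. RARS had 99.1 and 109 cpm in DU145-pc3.1 cells and 87.1 and 84.7 cpm in DU145-Esrrb cells, with a log2 fold change of -0.28 (SE 0.07, edgeR adjusted p = 0.0252). IARS and GARS changed by -0.24 (edgeR adjusted p = 0.0256) and -0.23 (edgeR adjusted p = 0.037). The mitochondrial partners did not pass the test: HARS2 had a log2 fold change of -0.11, RARS2 -0.12, IARS2 0.06 and LARS2 0.02.

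The count changed when single libraries were left out. The share of all tested genes called in each of those fits was not computed. The 5 calls became 0 without replicate 1 of DU145-Esrrb, 1 without replicate 2 of DU145-Esrrb or of DU145-pc3.1, and 2 without replicate 1 of DU145-pc3.1 or without either library of DY131-treated DU145-Esrrb cells. They became 9 without either library of DY131-treated DU145-pc3.1 cells.

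The second comparison was DY131 in DU145-pc3.1 cells, which lack the Esrrb vector. AARS was at 704 and 729 cpm in untreated cells and at 397 and 356 cpm in treated cells. Both treated libraries were well below both untreated ones, and the log2 fold change was -0.93 (SE 0.06). SARS, the seryl-tRNA synthetase, went from 171 and 180 cpm to 108 cpm in each treated library, a log2 fold change of -0.71 (SE 0.06). CARS, for cysteine, went from 75.5 and 79.8 cpm to 53.4 and 44.4 cpm, a log2 fold change of -0.67 (SE 0.09). PARS2 was the lowest mitochondrial member, from 6.78 and 8.19 cpm to 4.30 and 4.76 cpm, with a log2 fold change of -0.73 (SE 0.19). None of these pairs of groups overlapped.

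Other synthetases were higher. HARS went from 52.0 and 50.5 cpm to 79.2 and 82.1 cpm, a log2 fold change of 0.65 (SE 0.07), the highest of the 34 members. RARS was at 139 and 145 cpm after DY131 against 99.1 and 109 cpm before, a log2 fold change of 0.45 (SE 0.06). FARSB, the beta subunit of the cytosolic phenylalanyl-tRNA synthetase, had a log2 fold change of 0.35 (SE 0.09) and FARSA, the alpha subunit, one of 0.13 (SE 0.08). Among the mitochondrial enzymes MARS2, WARS2 and YARS2, for methionine, tryptophan and tyrosine, had log2 fold changes of 0.37, 0.35 and 0.28, whereas the cytosolic enzymes for the same amino acids, MARS, WARS and YARS, had -0.58, -0.64 and -0.46. Without replicate 2 of DY131-treated DU145-pc3.1 cells MARS2 was at 0.18, WARS2 at 0.17 and YARS2 at 0.21, and none of these 3 was called.

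In this comparison 12 members were called lower (10 cytosolic and 2 mitochondrial) and 6 higher (3 of each class), where 37.4% of all tested genes were called, 18.5% lower and 18.9% higher. AARS in this comparison helped to choose the set, and nothing is read from the count. The median log2 fold change was -0.20 over the cytosolic members and 0.00 over the mitochondrial ones, as over all tested genes. None of the calls reached a 2-fold change, where 4.19% of all tested genes did.

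The cytosolic members with TGATGNAA in their window had a median log2 fold change of -0.50 under DY131 in DU145-pc3.1 cells, from -0.93 for AARS to -0.01 for NARS, and 6 of the 7 were called lower. The 9 with a window but without these letters had a median of 0.05, from -0.71 for SARS to 0.65 for HARS, with 3 called lower and 3 higher. SARS, WARS and EPRS were called lower without the letters, and NARS, the asparaginyl-tRNA synthetase, held them at 256 and 272 cpm before and 264 and 262 cpm after DY131. YARS2 held a match and was higher. Under DY131 in DU145-Esrrb cells the median was -0.87 with the letters and -0.35 without them. There 6 of the 7 with them and 7 of the 9 without them were called lower, where 29.5% of all tested genes were. With the junction correction described below, IARS, which holds the letters, was called higher at 0.21. Of those without them, HARS was called higher at 0.29, and FARSA, KARS and RARS were not called, at 0.11, 0.05 and 0.09. AARS, whose counts chose the set, is among those with the letters, and the difference between these groups was not tested.

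The third comparison was DY131 in DU145-Esrrb cells. AARS was at 707 and 700 cpm in untreated and 342 and 338 cpm in treated cells, again without overlap, with a log2 fold change of -1.05 (SE 0.06). QARS, the glutaminyl-tRNA synthetase, differed more between the groups, from 104 and 103 cpm to 29.2 and 26.7 cpm, a log2 fold change of -1.90 (SE 0.08). RARS2, the mitochondrial arginyl-tRNA synthetase, went from 18.0 and 19.7 cpm to 4.69 and 4.63 cpm, a log2 fold change of -2.01 (SE 0.15). In DU145-pc3.1 cells neither of these genes had been called, at -0.18 for QARS and -0.16 for RARS2.

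CARS and TARS2, the latter the mitochondrial enzyme for threonine, had log2 fold changes of -1.01 (SE 0.09) and -0.97 (SE 0.08). CARS went from 73.7 and 79.5 cpm to 38.6 and 37.3 cpm. TARS2 went from 83.3 and 75.5 cpm to 40.5 and 40.8 cpm. MARS2 stood alone among the members called higher, from 12.7 and 11.2 cpm to 19.8 and 20.3 cpm, with a log2 fold change of 0.74 (SE 0.14). HARS, the member with the highest value in DU145-pc3.1 cells, had 39.2 and 39.0 cpm before and 40.2 and 43.0 cpm after treatment, a log2 fold change of 0.09 (SE 0.08).

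Here 23 members were called lower, 16 cytosolic and 7 mitochondrial, and 1 was called higher, where 58.7% of all tested genes were called, 29.5% lower and 29.2% higher. The median log2 fold change was -0.57 over the cytosolic members and -0.11 over the mitochondrial ones, against 0.00 over all tested genes. In both pools DY131 came with lower values by call in 10 members, namely AARS, CARS, EPRS, GARS, IARS, MARS, SARS, TARS, YARS and TARS2, and with a higher value in MARS2. The share of all tested genes called lower in both pools was not computed. AARS under DY131 in each pool helped to choose the set, and nothing is read from these counts. With the junction correction described below, IARS was called higher in DU145-Esrrb cells, at 0.21. The DU145-pc3.1 call of MARS2 was lost in 7 of the 8 fits that left out 1 library. RARS and FARSB were called higher in DU145-pc3.1 cells and lower in DU145-Esrrb cells, and RARS was at 0.09 in DU145-Esrrb cells and not called with the junction correction described below. At a 2-fold limit RARS2, QARS, AARS and CARS were called lower, where 12% of all tested genes were called in either direction. NARS, AARS2, EARS2, HARS2 and LARS2 were called in neither pool, with log2 fold changes between -0.11 and 0.24. With the junction correction AARS2 (0.33) and LARS2 (0.29) were called higher in DU145-Esrrb cells.

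**Figure D3:**
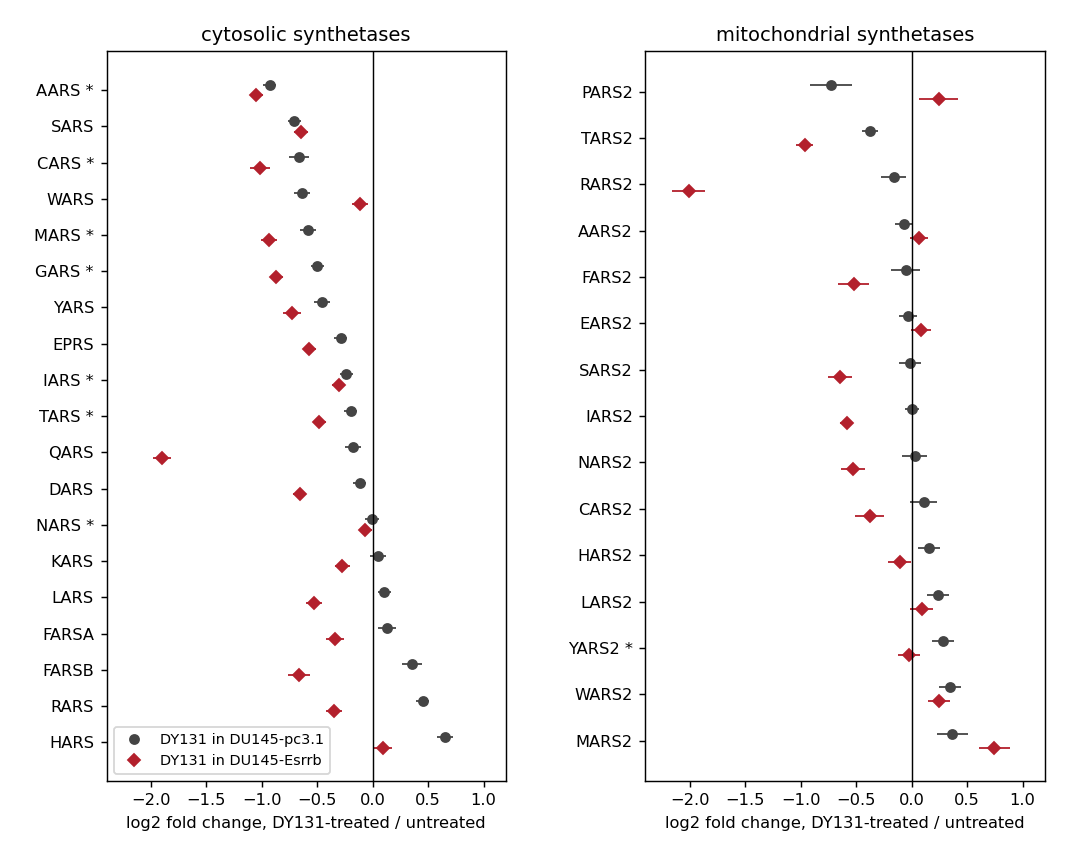
Log2 fold change of DY131-treated over untreated cells for each tested member, in DU145-pc3.1 cells (grey circles) and DU145-Esrrb cells (red diamonds), with bars of 1 SE. Members are ordered by the value in DU145-pc3.1 cells, and an asterisk marks TGATGNAA in the promoter window. QARS and RARS2 lie at -1.90 and -2.01 in DU145-Esrrb cells and at -0.18 and -0.16 in DU145-pc3.1 cells, while AARS lies at -1.05 and -0.93.

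The share of an mRNA whose reads must cross an exon junction moved with the results of the DY131-treated DU145-Esrrb libraries. For each gene, this share is the percentage of 50-base windows of its GENCODE 29 transcript that span a junction, 50 bases being the read length. It had a median of 30.3% over the tested cytosolic members and 24.7% over the mitochondrial ones, against 14.4% over 13608 genes. Over those genes, Spearman's rho between the share and the log2 fold change was -0.377 for DY131 in DU145-Esrrb cells and 0.00935 for DY131 in DU145-pc3.1 cells. Over the 34 members the rho was -0.64 in DU145-Esrrb cells and -0.154 in DU145-pc3.1 cells. By class the rho was -0.365 over the cytosolic and -0.864 over the mitochondrial members in DU145-Esrrb cells. In DU145-pc3.1 cells it was 0.0386 and -0.375. The genes share their libraries, and these values are descriptions.

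RARS2, at 52.6%, had the highest share of the tested members, followed by SARS2 at 48.1%, QARS at 40.6%, CARS at 39.8% and CARS2 at 37.5%. These 5 had a median log2 fold change of -1.01 under DY131 in DU145-Esrrb cells and of -0.16 in DU145-pc3.1 cells. MARS2, a gene of 1 exon, had the lowest share at 0.0%, with PARS2, WARS2, YARS2 and EARS2 next at up to 10.0%. These 5 had a median of 0.24 in DU145-Esrrb cells and 0.28 in DU145-pc3.1 cells.

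After a correction of each library for this share, the cytosolic median under DY131 in DU145-Esrrb cells was -0.26 in place of -0.57 and the mitochondrial one -0.01 in place of -0.11. The corrected log2 fold changes were -0.73 for AARS, -1.23 for QARS, -1.0 for RARS2, -0.37 for CARS, -0.58 for TARS2 and 0.47 for MARS2. IARS, at 0.21, HARS, at 0.29, AARS2, at 0.33, and LARS2, at 0.29, were called higher, as was MARS2. With the correction 15 members were called lower and 5 higher, where 53.6% of all genes were called, 25% lower and 28.5% higher. In DU145-pc3.1 cells the correction left 12 called lower and 6 higher, where 37.7% of all genes were called, 18.2% lower and 19.4% higher. It left AARS at -0.94 in these cells.

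**Figure D4:**
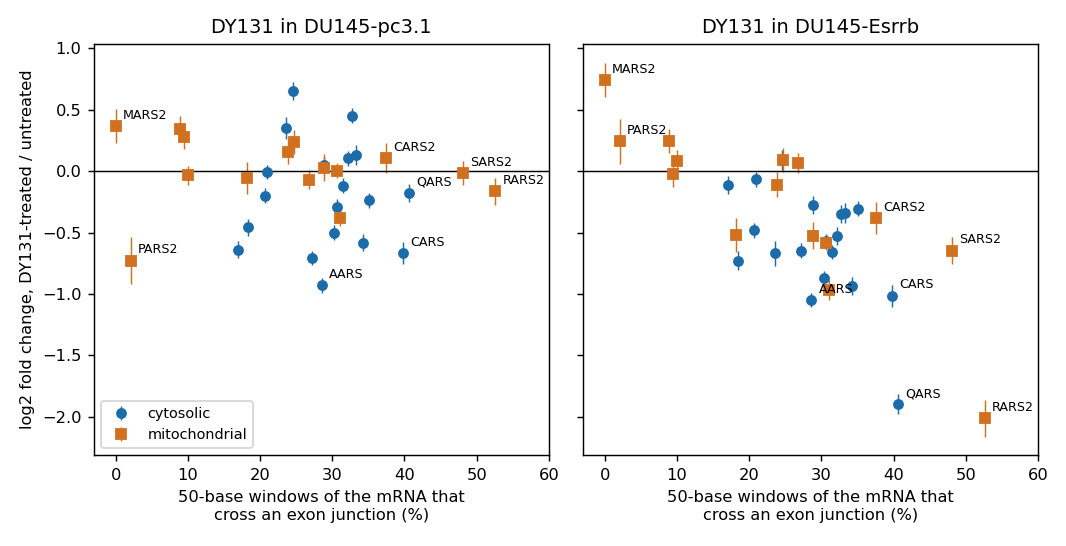
Log2 fold change under DY131 (y axis, bars of 1 SE) of the 34 tested members against the percentage of 50-base windows of the mRNA that cross an exon junction (x axis), in DU145-pc3.1 cells (left) and DU145-Esrrb cells (right). Circles are cytosolic and squares mitochondrial members. The points slope downward in the right panel, where rho was -0.64, and scatter in the left panel, where rho was -0.154.

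The fourth comparison set DU145-Esrrb against DU145-pc3.1 cells with DY131 in both. It shared its DU145-Esrrb libraries with the third comparison and its DU145-pc3.1 libraries with the second, so these comparisons are not independent. Of the tested members, 23 fell (15 cytosolic and 8 mitochondrial) and 2 rose, where 50.4% of all tested genes were called, 25.3% lower and 25.1% higher. The median log2 fold change was -0.47 over the cytosolic and -0.35 over the mitochondrial members, against 0.01 over all tested genes. At a 2-fold limit 4 fell (RARS2, QARS, RARS and LARS), where 8.21% of all tested genes were called. After the junction correction 12 fell and 5 rose, with medians of -0.12 and -0.10. Over all genes 38.7% were then called, 18% lower and 20.7% higher.

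RARS2 had 18.5 and 18.0 cpm in treated DU145-pc3.1 cells and 4.69 and 4.63 cpm in treated DU145-Esrrb cells, a log2 fold change of -1.96 (SE 0.15, edgeR's quasi-likelihood adjusted p = 7.45e-08). QARS had 89.3 and 90.4 cpm against 29.2 and 26.7 cpm, a log2 fold change of -1.69 (SE 0.08, edgeR adjusted p = 3.86e-10). With the junction correction they were at -0.96 (edgeR adjusted p = 0.000144) and -1.03 (edgeR adjusted p = 1.41e-07). Both mRNAs fell with and without the correction, and their libraries were far from overlapping. Few genes had a junction share near that of RARS2. Within 2 percentage points lay 18 genes outside the members, with a median log2 fold change of -0.98. Near QARS lay 207, with a median of -0.68. How well the correction holds at these shares was not tested.

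RARS, LARS and HARS, which also fell with Esrrb in untreated cells, were next. RARS had 139 and 145 cpm against 67.5 cpm in each DU145-Esrrb library, a log2 fold change of -1.08 (SE 0.07, edgeR adjusted p = 8.05e-09). LARS had 291 and 282 cpm against a mean of 140 ± 11.8 cpm (SD, n = 2), and the log2 fold change was -1.04 (SE 0.07, edgeR adjusted p = 9.27e-09). HARS had 79.2 and 82.1 cpm against 40.2 and 43.0 cpm, a log2 fold change of -0.95 (SE 0.07, edgeR adjusted p = 8.75e-08). With the correction they were at -0.63, -0.61 and -0.74, each still called. All 5 members that fell with Esrrb in untreated cells fell here too, although IARS, at -0.31, was at 0.20 with the correction and called higher. The partner LARS2 had -0.13 and did not pass the test, and HARS2 fell with -0.38 (edgeR adjusted p = 0.00617), which was not called without the first DY131-treated DU145-Esrrb library (-0.31) or with the correction (-0.18).

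WARS, the tryptophanyl-tRNA synthetase, rose from 170 and 199 cpm to 230 and 221 cpm, a log2 fold change of 0.29 (SE 0.07, edgeR adjusted p = 0.0023), and was at 0.34 with the correction. PARS2 rose from 4.30 and 4.76 cpm to 7.04 and 8.25 cpm, a log2 fold change of 0.76 (SE 0.20, edgeR adjusted p = 0.0046). The call of PARS2 was lost with the correction (0.47, edgeR adjusted p = 0.0726) and without the second DY131-treated DU145-Esrrb library (0.63). PARS2 and WARS were also the members called lower under DY131 in DU145-pc3.1 cells and not in DU145-Esrrb cells.

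The last comparison, on the same libraries as above, was the interaction, the difference between the log2 fold changes under DY131 in the 2 pools. It was called in 21 of the 34 tested members, 19 with a lower value in DU145-Esrrb cells (13 cytosolic and 6 mitochondrial) and 2 with a higher one, where 33.7% of all tested genes were called, 17.6% lower and 16.1% higher. At a 2-fold limit 3 were called (RARS2, QARS and FARSB), where 6.28% of all genes were. Without the second DY131-treated DU145-Esrrb library 13 were called. The share of all tested genes called without that library was not computed. With the junction correction 10 were called, 6 lower and 4 higher, and 6 were among the 21. Over all genes 22.7% were then called, 10.9% lower and 11.8% higher. The medians of the difference were -0.35 over the cytosolic and -0.30 over the mitochondrial members, and 0.00 and -0.08 with the correction.

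The difference was -1.85 for RARS2 (SE 0.19, edgeR's quasi-likelihood adjusted p = 4.56e-06) and -1.72 for QARS (SE 0.11, edgeR adjusted p = 1.53e-08). It was -1.02 for FARSB (SE 0.13, edgeR adjusted p = 3.98e-05) and -0.80 for RARS (SE 0.10, edgeR adjusted p = 2e-05). With the correction these 4 were at -0.87, -1.08, -0.84 and -0.36, and each was still called. FARSB went from 63.4 and 74.5 cpm to 81.6 and 94.9 cpm in DU145-pc3.1 cells and from 72.2 and 79.9 cpm to 47.8 cpm in both treated DU145-Esrrb libraries.

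The members with a higher value in DU145-Esrrb cells were PARS2 and WARS. For PARS2 the difference was 0.97 (SE 0.26, edgeR adjusted p = 0.0104), and it was not called with the correction (0.69, edgeR adjusted p = 0.0706), without replicate 2 of DU145-pc3.1 (0.82) or without the second DY131-treated DU145-Esrrb library (0.84). For WARS it was 0.53 (SE 0.10, edgeR adjusted p = 0.000694) and 0.57 with the correction. The difference for AARS was -0.12 (SE 0.09), and 0.21 (SE 0.08) with the correction, while that for NARS was -0.06.

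Within the family, the 8 enzymes of the multisynthetase complex (EPRS, IARS, LARS, MARS, QARS, RARS, KARS and DARS) were all called lower under DY131 in DU145-Esrrb cells, where 29.5% of all tested genes were. With the junction correction 4 of them (EPRS, MARS, QARS and DARS) were called lower, where 25% of all genes were. IARS was then called higher at 0.21, and LARS, KARS and RARS were not called, at -0.11, 0.05 and 0.09. In DU145-pc3.1 cells 3 of the 8 were called lower and 1 higher, where 18.5% and 18.9% of all tested genes were. Of their scaffold proteins, AIMP1, AIMP2 and EEF1E1, none was called lower in either pool. AIMP2 had 55.8 and 58.2 cpm in DU145-pc3.1 cells and 64.8 and 71.7 cpm after DY131, and 52.1 and 57.8 cpm in DU145-Esrrb cells and 86.8 and 82.2 cpm after DY131. EEF1E1 went from 22.0 and 23.5 cpm to 31.6 and 30.3 cpm in DU145-pc3.1 cells, and was at 22.3 and 20.3 cpm in treated DU145-Esrrb cells.

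Genes of the amino acid response were taken as a list of 20, and whether their promoter windows held the C/EBP-ATF element was not examined. Of these, 18 were called lower and 1 higher under DY131 in DU145-pc3.1 cells, with a median log2 fold change of -0.72, where 18.5% of all genes were called lower. In DU145-Esrrb cells 14 were called lower and 2 higher, with a median of -0.50, where 29.5% of all tested genes were called lower and 29.2% higher. CHAC1, a glutathione-degrading enzyme, had log2 fold changes of -1.64 and -0.86 in the 2 pools, and ASNS, the asparagine synthetase, -1.35 and -1.17. DDIT4, an inhibitor of mTORC1 signalling, had -1.55 and -0.79. ATF4 itself had 655 and 696 cpm in DU145-pc3.1 cells and 484 and 425 cpm after DY131, a log2 fold change of -0.57, and -0.20 in DU145-Esrrb cells. ATF5 was called higher in both pools, with 0.93 and 1.19. DDIT3 was called lower in DU145-pc3.1 cells and higher in DU145-Esrrb cells, with -0.77 and 0.47, and its interaction of 1.24 was the largest of the list. In the interaction 9 of the 20 were called higher in DU145-Esrrb cells and none lower, where 16.1% of all tested genes were called higher and 17.6% lower. Of the 34 synthetases 2 were called higher and 19 lower in it. With the junction correction 4 synthetases were called higher and 6 lower, where 11.8% and 10.9% of all genes were. The listed genes were not counted with that correction, so these corrected counts have no counterpart in the list.

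Of 9 other aminoacylation factors, 3 were called higher and 1 lower under DY131 in DU145-pc3.1 cells, and 1 higher and 3 lower in DU145-Esrrb cells. Over all tested genes 18.9% were called higher and 18.5% lower in DU145-pc3.1 cells, and 29.2% and 29.5% in DU145-Esrrb cells. Of 9 mitochondrial translation factors, 3 were called higher and 2 lower in DU145-pc3.1 cells and 3 in each direction in DU145-Esrrb cells. Of 6 cytosolic elongation factors, 1 was called higher and 3 lower in DU145-pc3.1 cells and 2 in each direction in DU145-Esrrb cells. The values of the scaffold genes and of these lists were taken without the junction correction.

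Some members are less certain than others. SARS2 shared 73.7% of its 50-base windows with the readthrough transcript AC011455.2, and its values, such as -0.65 under DY131 in DU145-Esrrb cells, could belong to either. HARS and HARS2 overlap on opposite strands, and how the counting treated strand is not given in the sources used here. HARS2 shared 4.2% of its windows with ZMAT2, and the other tested members shared at most 2.2% with another gene.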

How the data were processed

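RNA-Seq libraries (TruSeq Stranded mRNA, single reads of 50 bases) of 4 groups, 2 libraries each, were analysed. The authors cleaned reads with the FASTX-Toolkit, aligned to hg18 by TopHat2, and deposited raw read counts per gene from their program MULTICOM-MAP, without normalization. The handling of strand and of reads with several matches is not given in the sources used here. Columns were assigned through the sample descriptions. The columns of DU145-Esrrb cells under DY131 share 1 heading, so their replicate numbers are unknown, and "first" and "second" name only their order in the table. No pair of replicate libraries agreed within sampling noise (chi-square per degree of freedom from 1.29 to 7.1), and the p-values measure only the spread between these libraries.

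The 13856 genes that reached 1 cpm in 2 or more libraries were normalized by TMM and fitted with all 8 libraries in 1 model (R 4.3.3, edgeR 4.0.16, quasi-likelihood F test, Benjamini-Hochberg adjustment over all tested genes). A call is an adjusted p under 0.05, and cpm use TMM library sizes. Steps were tested on simulated data. The alternatives were edgeR's exact test, DESeq2 1.42.0, other scaling, filters and fold limits, corrections for junction windows or for length and GC content (GENCODE 29, GRCh38), the replicate number as a block, and each library left out.

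Members named were AARS, the 5 called members with the largest change and no overlap in each comparison, their partners in the other compartment, and up to 4 called genes of each pathway list. MARS2, WARS and the members at the ends of the junction shares or holding a motif, along with others named to fill a count, were added after their values were seen. The members and lists were chosen with earlier results of these data known, and some listed genes are not reported here. Python 3.11.15 with pandas 2.3.3 and matplotlib 3.10.9 was used for sequences and plots.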

Additional observations from a re-analysis of the deposited data

Results flagged for a closer look

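The response to DY131 differed between DU145-pc3.1 and DU145-Esrrb cells in 21 of the 34 tested synthetases by the interaction test of edgeR (quasi-likelihood, Benjamini-Hochberg adjustment), where 33.7% of all tested genes were called. The difference in log2 fold change was -1.85 for RARS2, -1.72 for QARS, -1.02 for FARSB and -0.80 for RARS, and 0.97 for PARS2 and 0.53 for WARS. The share of junction windows moved with these differences, with a rho of -0.645 over the 34 members and of -0.46 over 13608 genes. After the correction for that share 10 of the 34 were called, where 22.7% of all genes were, and PARS2 was not called (0.69, edgeR adjusted p = 0.0706). The part that the share had in the other calls was not tested.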

How the results depend on the processing

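Of 1585 recomputed log2 fold changes of called members, 1445 kept their direction and call, 122 lost the call and 18 changed sign. Those 18 all arose under the correction for exon junction windows. Under it, DY131 in DU145-Esrrb cells gave 0.11 for FARSA, 0.21 for IARS, 0.05 for KARS, 0.09 for RARS, 0.20 for CARS2 and 0.24 for SARS2. The comparison of the pools under DY131 gave 0.27 for CARS, 0.20 for IARS, 0.04 for KARS, 0.03 for MARS and 0.30 for SARS2. The interaction gave 0.28 for CARS, 0.10 for EPRS, 0.00 for GARS, 0.01 for KARS, 0.13 for MARS, 0.08 for CARS2 and 0.22 for SARS2. The cytosolic and mitochondrial medians became -0.26 and -0.01 for DY131 in DU145-Esrrb cells, -0.12 and -0.10 for Esrrb under DY131, and 0.00 and -0.08 for the interaction, in which 10 members were called. With a correction for length and GC content the cytosolic median was -0.28 for DY131 in DU145-pc3.1 cells and -0.63 in DU145-Esrrb cells, and the mitochondrial one was -0.16 for DY131 in DU145-Esrrb cells, -0.40 for Esrrb under DY131 and -0.35 for the interaction. With library size alone the medians for DY131 in DU145-Esrrb cells were -0.63 and -0.17. The cause was not tested for these shifts.

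For Esrrb in untreated cells, edgeR's exact test called 9 members, a fit of only the 4 libraries compared 8, and a 2-fold limit 0. With the 2-fold limit 0, 4, 4 and 3 members were called for DY131 in DU145-pc3.1 cells, DY131 in DU145-Esrrb cells, Esrrb under DY131 and the interaction. A replicate block, in the 6 libraries with a number, gave 2 calls for Esrrb in untreated cells, as did the same 6 libraries without the block. The numbers did not pair the libraries (correlations of deviations 0.0917, 0.0229 and -0.0685), and the block gave 17 calls for DY131 in DU145-pc3.1 cells. It was not run for the comparisons that need DY131-treated DU145-Esrrb cells, whose columns carry no number. For the exact test, the fit of only the libraries compared and the block, the share of all tested genes called was not computed. The same holds for the fits with single libraries left out. A change in the members and a change over all genes cannot be told apart from these counts.

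With each library left out, the calls ranged from 0 to 9 for Esrrb in untreated cells and from 13 to 24 for the interaction. The cytosolic median ranged from -0.63 to -0.52 for DY131 in DU145-Esrrb cells, from -0.49 to -0.40 for Esrrb under DY131 and from -0.41 to -0.29 for the interaction. The mitochondrial median ranged from -0.06 to 0.01 for Esrrb in untreated cells, from -0.04 to 0.05 and from -0.20 to -0.03 for DY131 in DU145-pc3.1 and DU145-Esrrb cells, from -0.40 to -0.28 for Esrrb under DY131 and from -0.39 to -0.27 for the interaction.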
